A study of Drosophila ananassae with 22 samples.

Results

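Promoter activity in whole *Drosophila ananassae* embryos was compared between mid and late organ formation: the 3 collections from 13 to 16 hr after egg laying (13-14, 14-15 and 15-16 hr) were set against the 3 collections from 10 to 13 hr (10-11, 11-12 and 12-13 hr). RAMPAGE reads mark the 5' ends of capped transcripts and were grouped by the authors into transcription start site clusters (TSCs), which are promoters as the assay sees them. Members were all TSCs and genes with at least 10 RPM (reads scaled to 1000000 per library) in any of the 6 libraries. There were 8695 such TSCs of 27105 in all, of which 7746 were attributed to a gene and 949 were not, and 5998 genes of the 8758 in the gene table. Just above that minimum, 192 TSCs had their highest value between 10 and 10.5 RPM, and 248 lay just below it, between 9.5 and 10 RPM. The 6 libraries belong to a developmental time course of 22 collections, each taken in a window of 1 hr from population cages. The embryos of both windows were untreated whole embryos of the reference genome strain In(3R)A. Every collection was barcoded during reverse transcription and then pooled with the rest of the series into a single library preparation. No collection was repeated, so adjacent hours stand in for replicates, and any change within a window counts as spread. A p-value here therefore sets the difference between windows against the hour-to-hour spread, which may also be technical.

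In fly embryos of this age the germ band has retracted and the dorsal side closes, after which the gut, muscles, trachea and nervous system take their final shape and the epidermis begins to make cuticle. A promoter fires where the transcription machinery assembles. Some promoters start transcription within a few bases, others over a broad stretch, and in flies the focused kind is commonly associated with genes of restricted expression and the broad kind with genes used in most cells. Because whole embryos were ground up, fewer cells of a type and less RNA per cell cannot be told apart. Gene identifiers could not be paired with names here, so genes are given by identifier or by the position of their TSCs on the scaffolds of the FlyBase r1.3 assembly, and no function is assigned to them. The stage of each window rests on the hours in the labels and was not checked against marker genes.

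The 13-16 hr libraries held 7021159, 1358460 and 3103862 reads in TSCs at 13-14, 14-15 and 15-16 hr, against 4928295, 2482604 and 1471754 reads at 10-11, 11-12 and 12-13 hr. A single read was therefore worth 0.142 to 0.736 RPM. The 2 shallowest libraries, 14-15 and 12-13 hr, also had the most isolated low values: 542 and 642 member TSCs were at least 2-fold below both neighbouring hours there, against 134 to 165 in the other 4 libraries. The reads became concentrated in fewer promoters: the 100 most used TSCs took 32.6%, 42.2% and 45.8% of RPM at 13-14, 14-15 and 15-16 hr, against 31.3%, 30.5% and 33.7% at 10-11, 11-12 and 12-13 hr. The share of RPM that reached the gene table was 79.3%, 73.5% and 69.7% at 13-16 hr, against 81.4%, 80.1% and 79.6% at 10-13 hr. The median member TSC lay 0.33 lower at 13-16 hr on the log2(RPM + 1) scale. With TMM normalization, which centres the bulk of TSCs by construction, this median was -0.04. RPM values are shares of a library, so a lower share and a lower output of most promoters cannot be told apart.

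A small set of promoters changed strongly and in both directions between the windows. Of the 8695 TSCs, 81 rose and 94 fell at 13-16 hr relative to 10-13 hr (limma on log2(RPM + 1), Benjamini-Hochberg adjusted p under 0.05), which is 0.932% and 1.08% of those tested, or 2.01% together. All 175 changed at least 2-fold and none overlapped between the windows. Of the 5998 genes, 72 rose and 95 fell, which is 1.2% and 1.58%, or 2.78% together. Larger numbers met looser criteria, each counted over all 8695 TSCs with the called ones included. On this count 832 TSCs were at least 2-fold higher and 1279 at least 2-fold lower, and 2052 reached an unadjusted limma p under 0.05. The 3 values of 13-16 hr lay above all 3 of 10-13 hr in 824 TSCs (9.48%) and below them in 1773 (20.4%). With TMM normalization 16 TSCs were called higher and 20 lower (0.184% and 0.23%, or 0.414% together), and the balance among genes turned, with 42 called higher and 32 lower (0.7% and 0.534%, or 1.23% together). The quasi-likelihood test of edgeR, run on reads recovered from the RPM values, called 5 TSCs (0.0575%) and 22 genes (0.367%). The count of called TSCs depended on single hours: it was 705 without 13-14 hr, 35 without 14-15 hr and 6 without 15-16 hr, and 23 without 10-11 hr, 23 without 11-12 hr and 602 without 12-13 hr. For genes it was 523 without 13-14 hr, 30 without 14-15 hr and 8 without 15-16 hr, and 40 without 10-11 hr, 34 without 11-12 hr and 415 without 12-13 hr.

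**Figure D1:**
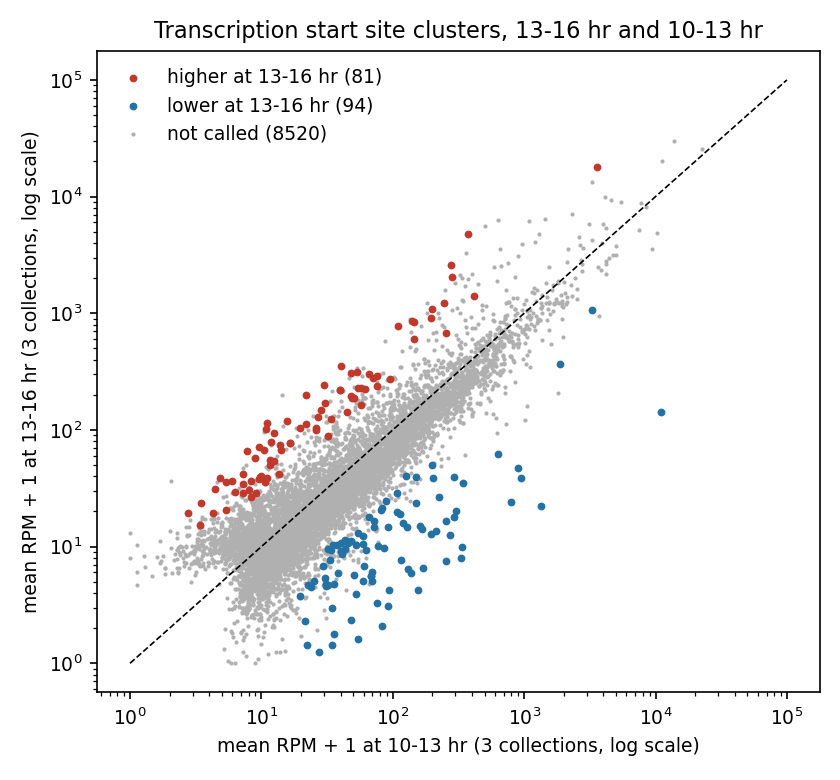
Mean RPM + 1 of each member TSC at 13-16 hr (vertical, log scale) against its mean at 10-13 hr (horizontal, log scale); each point is a TSC, the dashed line marks equal values, red points were called higher at 13-16 hr (81), blue points lower (94) and grey points were not called (8520). Called TSCs sit far from the line on both sides and span low and high expression.

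Over all member TSCs, the change ran through the 6 hours without a break at 13 hr. The step from 12-13 to 13-14 hr, which crosses the border of the windows, had a median absolute size of 0.43 on the log2(RPM + 1) scale, against 0.43 to 0.51 for the 4 steps within a window. R2 between libraries was 0.82 across that border, and the 5 adjacent pairs ranged from 0.79 to 0.86. R2 fell with distance in time, to a median of 0.66 for libraries 3 hr apart and to 0.55 for 15-16 hr against 10-11 hr. The step with the largest median shift was that from 13-14 to 14-15 hr, at -0.35, within the later window. A total of 321 TSCs were lower at each of the 5 steps and 81 were higher at each. The called TSCs, chosen for their difference between the windows, did move at the border. From 12-13 to 13-14 hr the median called-higher TSC went from 14.8% to 48.3% of its own maximum. The median called-lower TSC went from 34.1% to 10.4%. When a linear slope over the 6 hours was tested in place of the 2 window means, 443 TSCs rose (5.09%) and 951 fell (10.9%), or 16% together; the cause of this larger count was not tested.

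The gene with the largest rise was FBgn0036112. It stood at 2672, 6669 and 4603 RPM at 13-14, 14-15 and 15-16 hr, against 494, 512 and 92.2 RPM at 10-11, 11-12 and 12-13 hr. All its reads came from a TSC of 111 bp on the plus strand, scaffold_13337:15879015-15879125. Its difference was 3.92 ± 0.61 (SE, log2(RPM + 1) scale, limma adjusted p = 0.0126). Expression was already at 266 RPM at 8-9 hr, dipped in the shallow 12-13 hr library, and had dropped to 49.3 RPM by 18-19 hr. Its call was lost without 15-16 hr (limma adjusted p = 0.0972) and with the linear slope (limma adjusted p = 0.0627).

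The gene with the next largest rise, FBgn0035792, was used at a far lower level. It had 80.6, 134 and 78.6 RPM at 13-14, 14-15 and 15-16 hr, against 7.74, 4.34 and 16.6 RPM at 10-11, 11-12 and 12-13 hr. The whole signal came from a TSC of 33 bp on the minus strand, scaffold_13337:16283738-16283770. The difference was 3.35 ± 0.45 (SE, limma adjusted p = 0.00839). Like the gene before, it peaked at 14-15 hr and was back at 15.0 RPM at 16-17 hr. Without 15-16 hr its call was lost as well (limma adjusted p = 0.0634).

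The largest fall was that of FBgn0035621. It had 42.7, 17.2 and 3.14 RPM at 13-14, 14-15 and 15-16 hr, against 1765, 1947 and 241 RPM at 10-11, 11-12 and 12-13 hr. Its decline had thus begun by 12-13 hr, before the later window. A TSC of 42 bp on the plus strand, scaffold_13337:12957415-12957456, gave all its reads. The difference was -5.98 ± 0.90 (SE, limma adjusted p = 0.0110), and the gene was not called without 15-16 hr (limma adjusted p = 0.0772).

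FBgn0029128 fell almost as far. It had 101, 8.62 and 6.29 RPM at 13-14, 14-15 and 15-16 hr, against 995, 1251 and 633 RPM at 10-11, 11-12 and 12-13 hr. The windows did not overlap, and the values were lower at each hour from 12-13 to 15-16 hr than at the hour before. Of its 4 TSCs, the one at scaffold_12929:1728354-1728548 on the minus strand held 96.3% of the reads over the 6 hours. The difference was -5.59 ± 0.81 (SE, limma adjusted p = 0.0107), again lost without 15-16 hr (limma adjusted p = 0.0830). By edgeR, 3 of these 4 genes lay just past the threshold, with a Benjamini-Hochberg adjusted p of 0.0575 for FBgn0036112, 0.0575 for FBgn0035621 and 0.0666 for FBgn0029128.

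**Figure D2:**
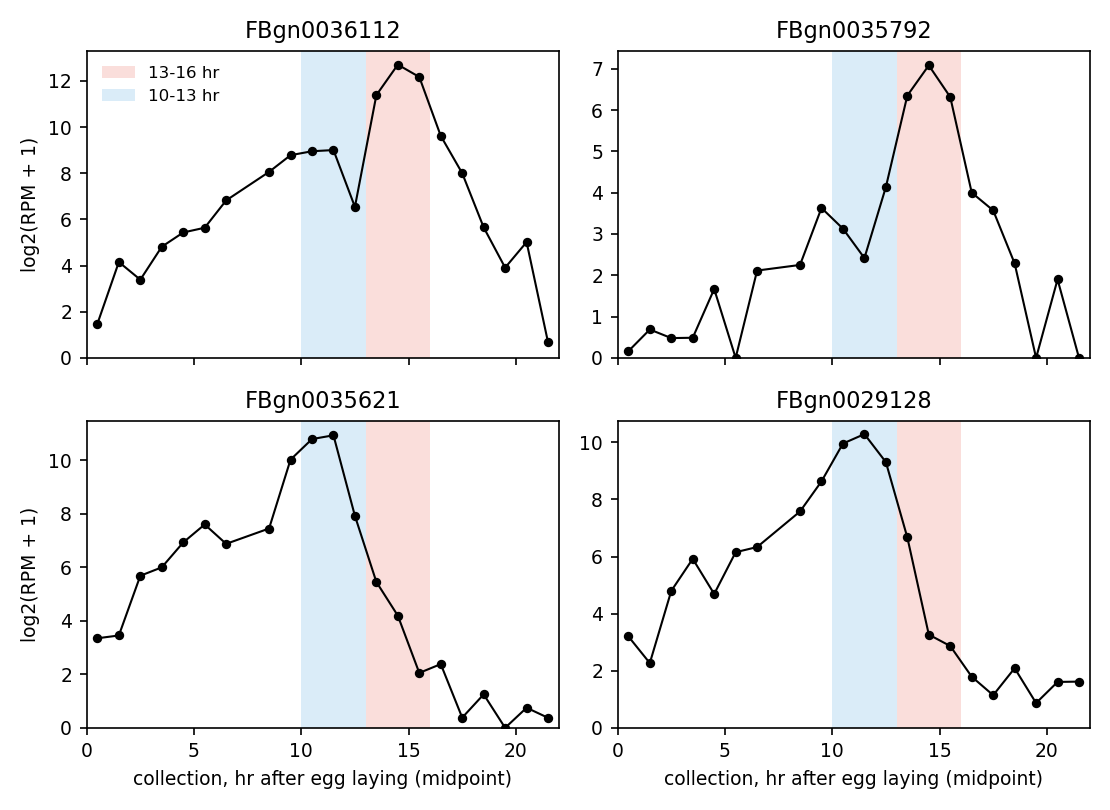
Expression of the 2 genes with the largest rise (top) and the 2 with the largest fall (bottom), as log2(RPM + 1) in each of 21 collections against hours after egg laying; the red band is 13-16 hr and the blue band 10-13 hr, with 1 library per point. The rising genes peak at 14-15 hr, and the falling genes peak at 11-12 hr.

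These 4 genes belong to the 12 with the largest rise and the 12 with the largest fall. All were chosen for their change between these windows, so a maximum inside the higher window is partly given by the choice. Of the 12 genes with the largest rise, with differences of 2.77 to 3.92, 10 had their highest value of all 21 collections within 13-16 hr, and in 8 the mean at 16-19 hr was under 0.25 times that at 13-16 hr. Of the 12 with the largest fall, with differences of -5.98 to -4.66, 11 had their highest value within 10-13 hr. The largest falls exceeded the largest rises on this scale. None of the 12 rising genes averaged under 35.6 RPM at 13-16 hr, and the 12 falling genes averaged 0.604 to 139 RPM there. The choice required at least 25 RPM in the higher window, which for falling genes is 10-13 hr.

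At the level of single promoters, 2 further TSCs illustrate the rise. On the plus strand at scaffold_12929:906519-906570, RPM was 1081, 4125 and 2508 at 13-14, 14-15 and 15-16 hr, against 193, 338 and 298 at 10-11, 11-12 and 12-13 hr, a difference of 3.05 ± 0.47 (SE, limma adjusted p = 0.0174). This TSC returned to 41.2 RPM at 17-18 hr. A TSC of 15 bp on the minus strand at scaffold_13266:17024454-17024468 had 52.0, 96.4 and 195 RPM at 13-16 hr, against 12.0, 12.1 and 6.12 RPM at 10-13 hr, a difference of 3.24 ± 0.49 (SE, limma adjusted p = 0.0169). It was higher at each hour of the later window than at the hour before.

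Among the promoters that fell, one had been the single most used at 10-11 hr, and the 4th by mean RPM over 10-13 hr. The plus-strand TSC at scaffold_13337:6590778-6591152, 375 bp wide, took 28334 RPM at 10-11 hr, which is 2.83% of that library and more than any other TSC. It gave 185, 146 and 95.4 RPM at 13-14, 14-15 and 15-16 hr, against 28334, 2603 and 2228 RPM at 10-11, 11-12 and 12-13 hr (difference -5.31 ± 0.80 SE, limma adjusted p = 0.0169). Most of this loss fell between 10-11 and 11-12 hr, inside the earlier window. The minus-strand TSC at scaffold_13117:683152-683177 went down more evenly, with 46.4, 16.9 and 5.48 RPM at 13-16 hr, against 1053, 965 and 359 RPM at 10-13 hr (difference -5.34 ± 0.66 SE, limma adjusted p = 0.00914).

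The most used promoters of 13-16 hr were not, in general, those with the largest change. The TSC with the highest mean, on the plus strand at scaffold_13337:20810416-20810674, had 14967, 33987 and 41131 RPM at 13-14, 14-15 and 15-16 hr, against 10318, 14635 and 16522 RPM at 10-11, 11-12 and 12-13 hr. Its windows overlapped and its difference of 1.02 ± 0.42 (SE) was not called (limma adjusted p = 0.183), yet it went on to 126617 RPM at 17-18 hr. The minus-strand TSC at scaffold_13337:1606663-1606978 was called higher: it had 8709, 21056 and 24053 RPM at 13-16 hr, against 2537, 3378 and 4847 RPM at 10-13 hr (difference 2.24 ± 0.44 SE, limma adjusted p = 0.0353). It then fell away to 302 RPM by 18-19 hr. Another, on the plus strand at scaffold_13340:11078799-11078969, already had 7243 RPM at 12-13 hr, above its 6456 RPM at 15-16 hr, and was not called despite a difference of 2.46 ± 0.73 (SE, limma adjusted p = 0.0972).

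The collections that the comparison did not use show what the called promoters did before and after. Of the 81 TSCs called higher, 63 reached their highest value of the whole course within 13-16 hr and 18 at 16 hr or later. Before the windows, 77 of the 81 (95.1%) averaged less at 8-10 hr than at 10-13 hr, against 51.7% of TSCs that were not called. After them, 48 of the 81 (59.3%) averaged under 0.5 times their 13-16 hr mean at 16-19 hr, against 26.7% of TSCs that were not called. At 16-19 hr, 31 of the 81 (38.3%) were below their own 10-13 hr mean, a smaller share than the 79.9% of TSCs that were not called. The median called-higher TSC stood at 48.3%, 92.1% and 73.4% of its own maximum at 13-14, 14-15 and 15-16 hr, against 9.6%, 13.1% and 14.8% at 10-11, 11-12 and 12-13 hr, and was at 10.5% by 18-19 hr. The median course was thus a short one, highest at 14-15 hr. The 13-16 hr values chose them, so the comparison with their later level is a description.

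Of the 94 TSCs called lower, 53 had their maximum within 10-13 hr, 39 before 10 hr and 2 at 16 hr or later. The median stood at 10.4%, 3.7% and 1.6% of its own maximum at 13-14, 14-15 and 15-16 hr, against 83.6%, 62.8% and 34.1% at 10-11, 11-12 and 12-13 hr. At 16-19 hr, 83 of the 94 (88.3%) averaged less than at 13-16 hr, against 81.2% of TSCs that were not called, so this share was near the background. All 94 were below their 10-13 hr mean at 16-19 hr, against 79.9% of TSCs that were not called, but the 10-13 hr values chose them. At 12-13 hr, the last hour of the earlier window, the medians of both classes already differed from those of its first hour in the direction of their call.

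**Figure D3:**
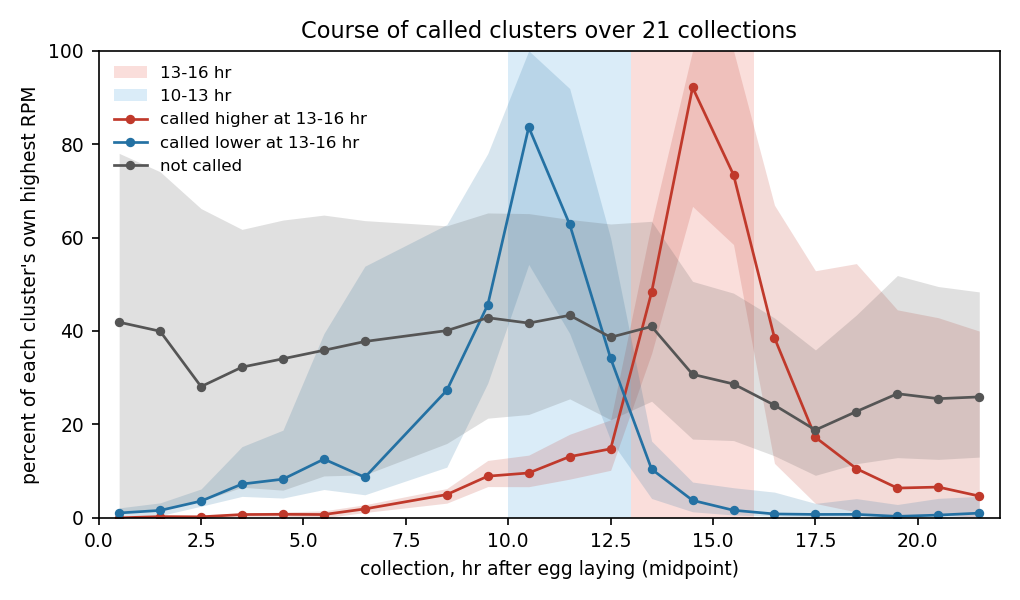
RPM of member TSCs in each of 21 collections, as a percent of each TSC's own highest value, against hours after egg laying; lines give the median and shading the middle 50% of TSCs called higher at 13-16 hr (red, 81), called lower (blue, 94) and not called (grey, 8520). The red median peaks at 92.1% at 14-15 hr and the blue median at 83.6% at 10-11 hr.

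TSC width played no role in choosing members, but it came from clusters called on the reads of all hours joined, both windows included. Width is thus not independent of the reads compared here, and whether low or brief use gives a narrower cluster was not tested. With this limit, width differed between the TSCs that were higher at 13-16 hr and the rest. The narrowest 25% of TSCs, 2216 of 1 to 72 bp, were at least 2-fold higher at 13-16 hr in 21.7% of cases, against 5.42% of the 6479 wider ones. The shares that were at least 2-fold lower lay close together, at 15.5% of the narrow TSCs and 14.4% of the wider ones. The median difference was 0.03 in narrow TSCs and -0.39 in wider ones, on the log2(RPM + 1) scale. Of the narrow TSCs, 45 (2.03%) were called higher, and the 3 wider groups of 25% each gave 0.278%, 0.602% and 0.788%, beside 0.932% of all TSCs. The narrow TSCs also had the highest share called lower, 31 (1.40%), where the wider groups gave 0.648%, 1.06% and 1.20%, beside 1.08% of all TSCs. TSCs called higher had a median width of 61 bp, TSCs called lower 112 bp and TSCs not called 105 bp.

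Narrow TSCs were also less used, with a median highest value of 24.9 RPM over the 6 libraries, against 34.6 to 63.8 RPM in the 3 wider groups. Among TSCs of at least 100 RPM the contrast was as large, with 34.6% of 289 narrow TSCs and 7.87% of 2032 wider ones at least 2-fold higher. At that level 18.7% of the narrow TSCs and 12.7% of the wider ones were at least 2-fold lower. The contrast in 2-fold higher TSCs was present without the shallow 12-13 and 14-15 hr libraries (28.0% and 7.04%) and with TMM normalization (31.0% and 8.57%). It held for TSCs attributed to genes (22.2% and 5.15%) and for unattributed ones (18.7% and 7.94%). Narrow TSCs took 12.9%, 12.4% and 11.2% of the members' RPM at 13-14, 14-15 and 15-16 hr, against 8.85%, 10.0% and 10.6% at 10-11, 11-12 and 12-13 hr, with no overlap between the windows. This was part of a longer course: the share was 4.57% at 0-1 hr, 9.74% at 17-18 hr and 13.9% at 21-22 hr. TSCs share their libraries and are not replicates, so these shares carry no test.

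**Figure D4:**
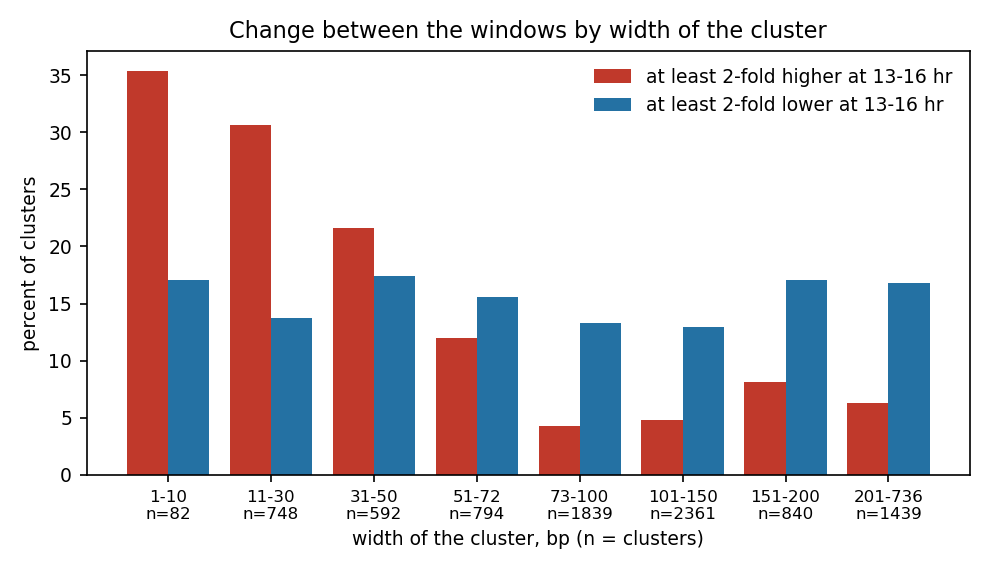
Percent of member TSCs at least 2-fold higher (red) and at least 2-fold lower (blue) at 13-16 hr than at 10-13 hr, by the width of the TSC in bp; n is the number of TSCs of each width. The red share is 30.6% at 11 to 30 bp and 4.30% at 73 to 100 bp, and the blue share lies between 12.9% and 17.4% at every width.

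Some of the rising promoters lay beside one another. Counting each region once, 14 of 79 TSCs called higher had another one, of a different gene or unattributed, within 10 kb. Of the 127 other member TSCs within 10 kb of a TSC called higher, 14 (11.0%) were called higher themselves, beside 0.932% of all TSCs, and 1 was called lower. For TSCs called lower, 8 of 157 such neighbours (5.10%) were called lower too, beside 1.08% of all TSCs. Why neighbouring TSCs were called together, and whether some of them start transcripts of the same gene, was not tested.

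The longest such run held 4 TSCs of 4 different genes on the plus strand within scaffold_13337:10345450-10355734. The first, at 10345450-10345476, had 219, 287 and 183 RPM at 13-14, 14-15 and 15-16 hr, against 21.3, 49.1 and 88.3 RPM at 10-11, 11-12 and 12-13 hr (difference 2.29 ± 0.48 SE, limma adjusted p = 0.0429). The next, at 10350953-10351109, had 600, 1504 and 1540 RPM at 13-16 hr, against 139, 279 and 318 RPM at 10-13 hr (difference 2.27 ± 0.46 SE, limma adjusted p = 0.0392). The one after it, at 10353730-10353749, had 776, 1230 and 334 RPM at 13-16 hr, against 52.8, 135 and 138 RPM at 10-13 hr (difference 2.77 ± 0.52 SE, limma adjusted p = 0.0311). All 3 rose together but did not decline together: at 17-18 hr the first and this one were at 3.05 RPM each, while the second was still at 757 RPM. By 18-19 hr the second was down to 36.4 RPM. The fourth, at 10355611-10355734, had 384, 1053 and 1126 RPM at 13-16 hr, against 132, 116 and 168 RPM at 10-13 hr (difference 2.48 ± 0.43 SE, limma adjusted p = 0.0238), and stood at 19.8 RPM at 17-18 hr.

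**Figure D5:**
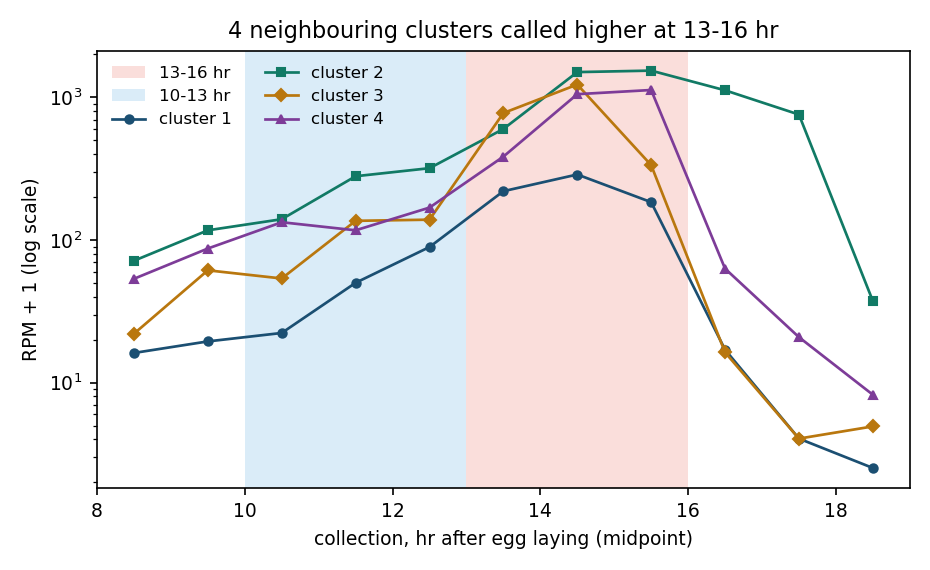
RPM + 1 (log scale) of 4 neighbouring TSCs, numbered in their order along the plus strand, in 11 collections from 8-9 to 18-19 hr; the red band is 13-16 hr and the blue band 10-13 hr. All 4 rise into 13-16 hr. Cluster 2 falls later than the others, with 757 RPM at 17-18 hr and 36.4 RPM at 18-19 hr.

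Genes with several promoters were searched for exchanges between them. Of the 6484 genes with a member TSC, 939 had at least 2, and 42 of their 2201 member TSCs were called (1.91%), beside 2.01% of all TSCs. In 5 genes at least 2 TSCs were called, all of them higher in 2 genes and all lower in 3. TSCs of the same gene were called in opposite directions in 0 genes by limma, and lay on opposite sides at an unadjusted limma p under 0.05 in 11. The slope gave 5 such genes and leaving out 12-13 and 13-14 hr gave 6. By edgeR the count was 0, with 5 TSCs called in all, so it says little. The TSC with the highest window mean differed between 13-16 hr and 10-13 hr in 88 of the 939 genes. In 15 of them the same TSC led in each hour of a window and another one in each hour of the other window.

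One such gene lay on the minus strand of scaffold_12929 and was chosen after the values were seen. It ranked 2nd among the 15 by level, taken as the lower of the mean RPM of its 2 leading TSCs, each in the window that it led. Its TSC at 419566-419638, which led at 10-13 hr, had 60.7, 30.2 and 23.2 RPM at 13-14, 14-15 and 15-16 hr, against 168, 231 and 204 RPM at 10-11, 11-12 and 12-13 hr (difference -2.48 ± 0.39 SE, limma adjusted p = 0.0181). Its TSC at 415454-415546, which led at 13-16 hr, had 88.4, 69.2 and 78.0 RPM at 13-16 hr, against 135, 110 and 64.5 RPM at 10-13 hr, and was not called (difference -0.33 ± 0.36 SE, limma adjusted p = 0.570). The change of leader in this gene went with a fall at one promoter, and the difference between the 2 changes was not tested. A gene on the minus strand of scaffold_13266 ranked 1st among the 15 by the same measure. Its TSC at 17113290-17113368 had 338, 233 and 603 RPM at 13-16 hr, against 312, 298 and 113 RPM at 10-13 hr. Its TSC at 17131451-17131577 had 158, 178 and 241 RPM at 13-16 hr, against 451, 376 and 133 RPM at 10-13 hr. Neither was called (limma adjusted p = 0.359 and 0.437), and the hourly values of both overlapped between the windows. The 2 leading TSCs of the gene ranked 3rd, on the plus strand of scaffold_13337, moved oppositely without overlap, but neither was called. At 9676959-9677023, RPM was 84.3, 84.7 and 93.8 at 13-16 hr, against 35.1, 59.6 and 77.5 at 10-13 hr (difference 0.67 ± 0.36 SE). At 9656241-9656376 it was 51.6, 42.7 and 29.0, against 52.4, 66.5 and 78.8 (difference -0.69 ± 0.35 SE). In the 4th, neither was called and only the TSC leading at 13-16 hr, which was higher, had no overlap.

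Promoters that the authors attributed to no gene were called at shares near those of all TSCs. Of the 949 unattributed TSCs, 7 rose (0.738%) and 16 fell (1.69%), beside 0.932% and 1.08% of all TSCs; of the 7746 attributed ones, 74 rose (0.955%) and 78 fell (1.01%). The strongest of the rises in absolute level was on the plus strand at scaffold_13337:18669456-18669666, with 1170, 1234 and 855 RPM at 13-14, 14-15 and 15-16 hr, against 82.8, 226 and 289 RPM at 10-11, 11-12 and 12-13 hr (difference 2.60 ± 0.45 SE, limma adjusted p = 0.0238). It was down to 18.4 RPM at 18-19 hr. The largest unattributed rise, on the minus strand at scaffold_13335:1016965-1016986, had lower values: 25.5, 48.6 and 38.7 RPM at 13-16 hr, against 4.67, 2.01 and 4.76 RPM at 10-13 hr (difference 3.02 ± 0.43 SE, limma adjusted p = 0.0168). By contrast, the plus-strand TSC at scaffold_12916:4672695-4672723 had its highest values later. It had 30.5, 44.2 and 36.7 RPM at 13-16 hr, against 5.88, 6.85 and 12.9 RPM at 10-13 hr (difference 2.05 ± 0.39 SE, limma adjusted p = 0.0311), and 76.9 RPM at 18-19 hr.

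The 3 unattributed TSCs with the largest fall had their highest values at 10-11 hr or earlier. The largest, on the plus strand at scaffold_13340:17963336-17963395, had 17.2, 7.36 and 2.26 RPM at 13-14, 14-15 and 15-16 hr, against 592, 358 and 57.8 RPM at 10-11, 11-12 and 12-13 hr (difference -4.87 ± 0.82 SE, limma adjusted p = 0.0213). The next, on the minus strand at scaffold_13340:3538038-3538144, had 7.83, 0.736 and 1.29 RPM at 13-16 hr, against 128, 118 and 30.6 RPM at 10-13 hr (difference -4.58 ± 0.69 SE, limma adjusted p = 0.0169). The value at 14-15 hr is that of a single read. The last, on the plus strand at scaffold_12916:16180008-16180170, had 44.7, 11.8 and 0.967 RPM at 13-16 hr, against 590, 217 and 104 RPM at 10-13 hr (difference -4.51 ± 0.97 SE, limma adjusted p = 0.0457), and had been highest at 8-9 hr with 691 RPM. Without 15-16 hr limma called 0 unattributed TSCs, with 135 at an unadjusted p under 0.05, and edgeR called 0, with 252. The other hours moved the 23 calls too: limma called 64 without 13-14 hr and 2 without 14-15 hr, and 1 without 10-11 hr, 1 without 11-12 hr and 79 without 12-13 hr.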

How the data were processed

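The authors mapped RAMPAGE reads with STAR (version not given in the sources used here) to the *D. ananassae* genome (FlyBase r1.3). They called TSCs once on all hours joined and dropped those in ribosomal DNA repeats. Expression was deposited in RPM per TSC and, over attributed TSCs, per gene, with TSC positions. Gene and TSC values are scaled slightly differently. At 13-14 hr FBgn0036112 had 2672 RPM as a gene, and its only TSC, with all its reads, had 2730 RPM. The whole-number score that the authors deposited beside each position was not used, nor was the smoothed, rescaled gene table. The gene table lists *D. melanogaster* identifiers of orthologs. Of the member genes, 4744 (79.1%) had the reads of a single *D. ananassae* gene. The reference gene annotation held 0 of its identifiers, so no names or promoter sequences were used. The 7-8 hr collection was not used, following the study.

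Columns were assigned to hours by the labels. Values were whole multiples of 1 read (100% within 0.1 read). The test was limma 3.58.1 (moderated, with an intensity trend) on log2(RPM + 1), which understates changes of low values, with the window as its only term and Benjamini-Hochberg adjustment over all members, called at 0.05. The alternatives were other pseudocounts and minima, TMM normalization, no trend, edgeR 4.0.16 on the recovered reads, a linear slope, and leaving out hours. The fits were run on simulated data with constant means within each window, which does not cover change between the hours of a window. An exact permutation test of 3 against 3 libraries cannot give a two-sided p under 0.10 and was not used. Python 3.11.15 and R 4.3.3 were used. The ± values are standard errors of the limma fit and rest on the spread between hours. By counting error only, a count of 0 allows 3 reads, or 0.427 to 2.21 RPM.

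Genes and TSCs named are those with the largest rise or fall among features called, at least 2-fold changed, without overlap between windows and with a mean of at least 25 RPM in the higher window: 2 genes and up to 5 TSCs in each direction, and 3 unattributed TSCs in each direction. The most used TSCs, the run of neighbours and the genes with another leading TSC were added after their values were seen. Among TSC rows, 186 members repeat 92 regions under more than 1 gene, of which 6 called rows are 3 regions. The members and lists were chosen with earlier results of these data known.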

Additional observations from a re-analysis of the deposited data

How the results depend on the processing

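The counts of calls did not hold under most alternatives (16 for TSCs, 15 for genes). The called features kept their direction, but none of them overlapped between the windows, so leaving out hours or changing the pseudocount, minimum or trend could not turn it. Against 175 TSCs called, there were 293 with a pseudocount of 5 RPM, 111 with a minimum of 25 RPM, 326 with no minimum, 36 with TMM normalization, 72 without the intensity trend, 5 with edgeR, 1394 with a linear slope and 1660 without the border hours 12-13 and 13-14 hr. Leaving out 1 hour at a time gave 6 to 705 TSCs. Against 167 genes, there were 108 with a minimum of 25 RPM, 74 with TMM normalization, 22 with edgeR, 1084 with a linear slope and 1213 without the border hours, and 8 to 523 with 1 hour left out. Against 23 unattributed TSCs, there were 13 with a minimum of 25 RPM, 36 with no minimum, 4 with TMM normalization, 8 without the trend, 0 with edgeR, 161 with a linear slope and 203 without the border hours, and 0 to 79 with 1 hour left out. Genes with TSCs called in opposite directions numbered 5 with a linear slope and 6 without the border hours, against 0, and 0 with any 1 hour left out. The cause of these shifts was not tested. TMM normalization kept 35 of the called TSCs and 70 of the called genes. Counting each region once, added after seeing the data, gave 168 TSCs; the checks of narrow TSCs were likewise added. No paired analysis was possible because the hours of the 2 windows do not correspond and no hour was sampled again. The lists of genes by symbol were not run, since the identifiers could not be paired with symbols. Depth limits low values: a single read was worth up to 0.736 RPM, at 14-15 hr.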
